A study of Mus musculus with 12 samples.

Results

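The 48 predicted miRNAs were the small RNAs that the deposited tables give the type miRNA and a name beginning with novel_mir, each with the chromosome, strand, start and end of a hairpin of 37 to 88 bases (median 63.5). They stood beside 1374 known mature miRNAs, 1422 miRNAs in all, among 3134 listed small RNA features. Small RNA of the prefrontal cortex (PFC) of adult male C57BL/6 mice was sequenced in 12 libraries, 3 in each of 4 groups, with the RNA of 2 animals pooled in each library. The SS group received saline alone and the CS group was conditioned with cocaine at 20 mg/kg, while the MS group received L-methionine (1 g/kg per the labels, injected over 10 days) with saline, and the MC group L-methionine with cocaine. A lower dose of L-methionine is also named in the study's text, and the difference could not be settled here. All animals went through conditioned place preference (CPP), a test of how strongly an animal seeks the place where it was given a drug, and the PFC was taken 2 h after the last test. The library totals lay between 7.77 and 11.1, in units of 1000000 counts, and miR-124-3p, miR-9-5p and miR-128-3p, which mark brain tissue, were listed in all 12.

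A canonical miRNA is cut from a hairpin in a longer transcript by Drosha, exported, cut again by Dicer and loaded into an Argonaute protein, where bases 2 to 8 of the mature strand, the seed, pair with target mRNAs. Prediction programs look for this signature in small RNA reads, namely a stack of reads on one arm of a sequence that can fold into a hairpin. Transfer RNAs and small nucleolar RNAs (snoRNAs) fold as well, and their fragments can have the size of a miRNA. A further class, the mirtrons, are short introns whose ends are set by splicing in place of Drosha, so that the 3' end of the hairpin is the 3' end of the intron. The positions of the 48 hairpins were therefore compared with the gene annotation of the build the files use (mm10, GENCODE M21 and RefSeq GRCm38.p6).

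Of the 48 hairpins, 13 overlapped a small RNA gene, namely 4 a miRNA gene, 2 a tRNA gene and 7 a snoRNA gene. Another 10 overlapped an exon of another gene on the same strand, 7 lay inside an intron, 6 lay opposite a gene and 12 overlapped no GENCODE gene. By counts the order was different. The 2 hairpins at tRNA genes held 77.2% of the 38822 counts on predicted miRNAs, the 12 outside GENCODE genes held 10.8% and the 7 at snoRNA genes 4.82%. Hairpins in introns held 2.70%, those at annotated miRNA genes 2.08%, those in exons 1.58% and those opposite a gene 0.732%.

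Of the 48, 4 lay at genes already annotated as miRNAs, namely novel_mir7, novel_mir10, novel_mir84 and novel_mir73. novel_mir10 (chr3:55887284-55887338, minus strand, in an intron of Nbea, which encodes neurobeachin) and novel_mir84 (chr5:125781683-125781739, plus strand, in an intron of Tmem132b) matched Gm51273 and Gm51294 to within 1 base at either end. None of the 3 mature names that RefSeq gives at these 2 loci was listed in any of the 12 libraries, so the predicted entries were the only rows for them. Their mature sequences follow, from RefSeq on GRCm38.p6, 5' to 3', with the seed in capitals, because they show which seeds these 2 predictions would add; the files do not say which arm the reads came from, and no seed was shared between them.
mmu-miR-12194-3p (novel_mir10): uCUGUGGGucuguuuguccguc
mmu-miR-12200-5p (novel_mir84): aAACAAACcagaggcucacacu
mmu-miR-12200-3p (novel_mir84): uGUGAAUCuccggcgcguuu

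Of the 4, novel_mir73 (chr7:61750468-61750527, minus strand), lay in the GENCODE miRNA gene Gm23873, inside an intron of the long non-coding RNA A230057D06Rik. It is printed with 4 of the 7 snoRNA loci, since in these the predicted hairpin (capitals) can be seen as a stretch of an annotated RNA. The sequences are GENCODE transcripts on GRCm38, 5' to 3'.
Gm23873 (novel_mir73): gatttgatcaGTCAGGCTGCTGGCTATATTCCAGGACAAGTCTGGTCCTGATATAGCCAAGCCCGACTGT
Snord104 (novel_mir4): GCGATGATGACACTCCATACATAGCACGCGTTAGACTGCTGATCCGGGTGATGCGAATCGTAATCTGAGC
Gm22711 (novel_mir56): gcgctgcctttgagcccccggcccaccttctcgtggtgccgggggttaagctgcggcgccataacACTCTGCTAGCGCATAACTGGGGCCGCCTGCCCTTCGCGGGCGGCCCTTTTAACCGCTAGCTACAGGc
Snora65 (novel_mir72): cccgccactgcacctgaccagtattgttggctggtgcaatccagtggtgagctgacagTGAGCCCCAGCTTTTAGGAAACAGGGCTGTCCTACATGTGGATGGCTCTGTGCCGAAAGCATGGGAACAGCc
Gm26205 (novel_mir13): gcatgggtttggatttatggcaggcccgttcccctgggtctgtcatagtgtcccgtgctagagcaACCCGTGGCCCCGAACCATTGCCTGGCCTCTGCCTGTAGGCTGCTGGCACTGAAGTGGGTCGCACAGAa

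SnoRNAs guide chemical changes of other RNAs, the box C/D class methylation and the box H/ACA class pseudouridylation, and an H/ACA snoRNA folds into a pair of hairpins joined by a hinge. novel_mir4 (chr11:106500990-106501064, plus strand) spanned the whole 70-base transcript of Snord104, a C/D snoRNA. In the longer snoRNA transcripts the hairpins lay toward the 3' end. novel_mir56 took positions 66 to 132 of the 133 bases of Gm22711, novel_mir72 took positions 59 to 129 of the 130 bases of Snora65, and novel_mir13 took positions 66 to 133 of the 134 bases of Gm26205, within Rpl6. novel_mir5 took positions 72 to 137 of the 140 bases of Snora7a, within Rpl32, and novel_mir34 took positions 68 to 125 of the 130 bases of Snora30, within Srcap. All 5 of these hairpins thus began at position 59 or later and ended at most 5 bases before the last base of the transcript. The seventh, novel_mir83, took positions 7 to 78 of the 80 bases of Gm26224, in Gas5, a host gene of snoRNAs. novel_mir4 and novel_mir56 lay 245 bases apart on chromosome 11.

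Among the members in introns and exons, 6 ended within 7 bases of the 3' end of an annotated intron, the place where a mirtron's hairpin would end. They included novel_mir22 in a 168-base intron of Sez6, novel_mir54 in Aff3 and novel_mir69 in a 209-base intron of Cacnb4. Also among them were novel_mir89 in a 297-base intron of Arhgef2 and novel_mir65 at an 86-base intron of Ints1. novel_mir65 ran 7 bases past the intron's 3' end, into coding sequence. None of these named hairpins began at the 5' end of its intron. The distance was 29 bases for novel_mir65, 108 for novel_mir22, 149 for novel_mir69, 232 for novel_mir89 and 37551 for novel_mir54. Only the 3' end thus lay at or near the place where that of a mirtron would be. Sez6 and Cacnb4 encode a neuronal membrane protein and a calcium channel subunit. novel_mir22, novel_mir54 and novel_mir65 were listed in all 12 libraries. novel_mir54 (chr1:38627245-38627306, minus strand) ended with the last base of a 37613-base intron of Aff3, which encodes a nuclear protein of the AF4 family, and 1 base before the start of another RefSeq transcript of that gene. Its 62 bases are shown because the results below turn on it, read from the RefSeq start window on GRCm38.p6, with the intron's last bases in capitals.
novel_mir54: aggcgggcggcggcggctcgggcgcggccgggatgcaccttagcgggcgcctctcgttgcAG

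novel_mir57, which shares 23 bases with novel_mir54 and runs on into the next exon, was listed in 1 library with 10 counts. The sequence of 18 members could be read from the reference tables, and RNAfold gave each of them a minimum free energy structure with a single hairpin loop. The median over 1005 RefSeq mouse miRNA hairpins was -0.406 kcal/mol per base, with 10th and 90th percentiles of -0.538 and -0.294. novel_mir7 folded more tightly than most of them (-0.716), as did novel_mir56 (-0.597), novel_mir73 (-0.503) and novel_mir54 (-0.500). novel_mir39 (-0.274, in an exon of a non-coding transcript of Atp6v1h), novel_mir83 (-0.257) and novel_mir29 (-0.202, in an exon of Elp3) lay above the 90th percentile, that is, they folded less tightly. Hairpins at snoRNA genes were found on both sides of the RefSeq median, as were the hairpins at miRNA genes.

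Most members were rare. Predicted miRNAs were listed from 10 counts upward, which is 0.903 to 1.29 CPM in these libraries (CPM, the count scaled to a library total of 1000000), whereas known miRNAs were listed from 1 count. The rule for listing is not given in the sources used here. Under such a minimum a member that is not listed may have had up to 9 counts. The lack of an entry thus does not show absence. In the tests such a value entered as 0, and as 9 counts in an alternative. Of the 310 listed values, 149 (48.1%) lay between 10 and 19 counts. In all, 12 members were listed in all 12 libraries, 22 in 3 to 11, 4 in 2 and 10 in a single library. Of these last 10, with 10 to 29 counts each, 6 were listed in MC replicate 16 alone.

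**Figure D1:**
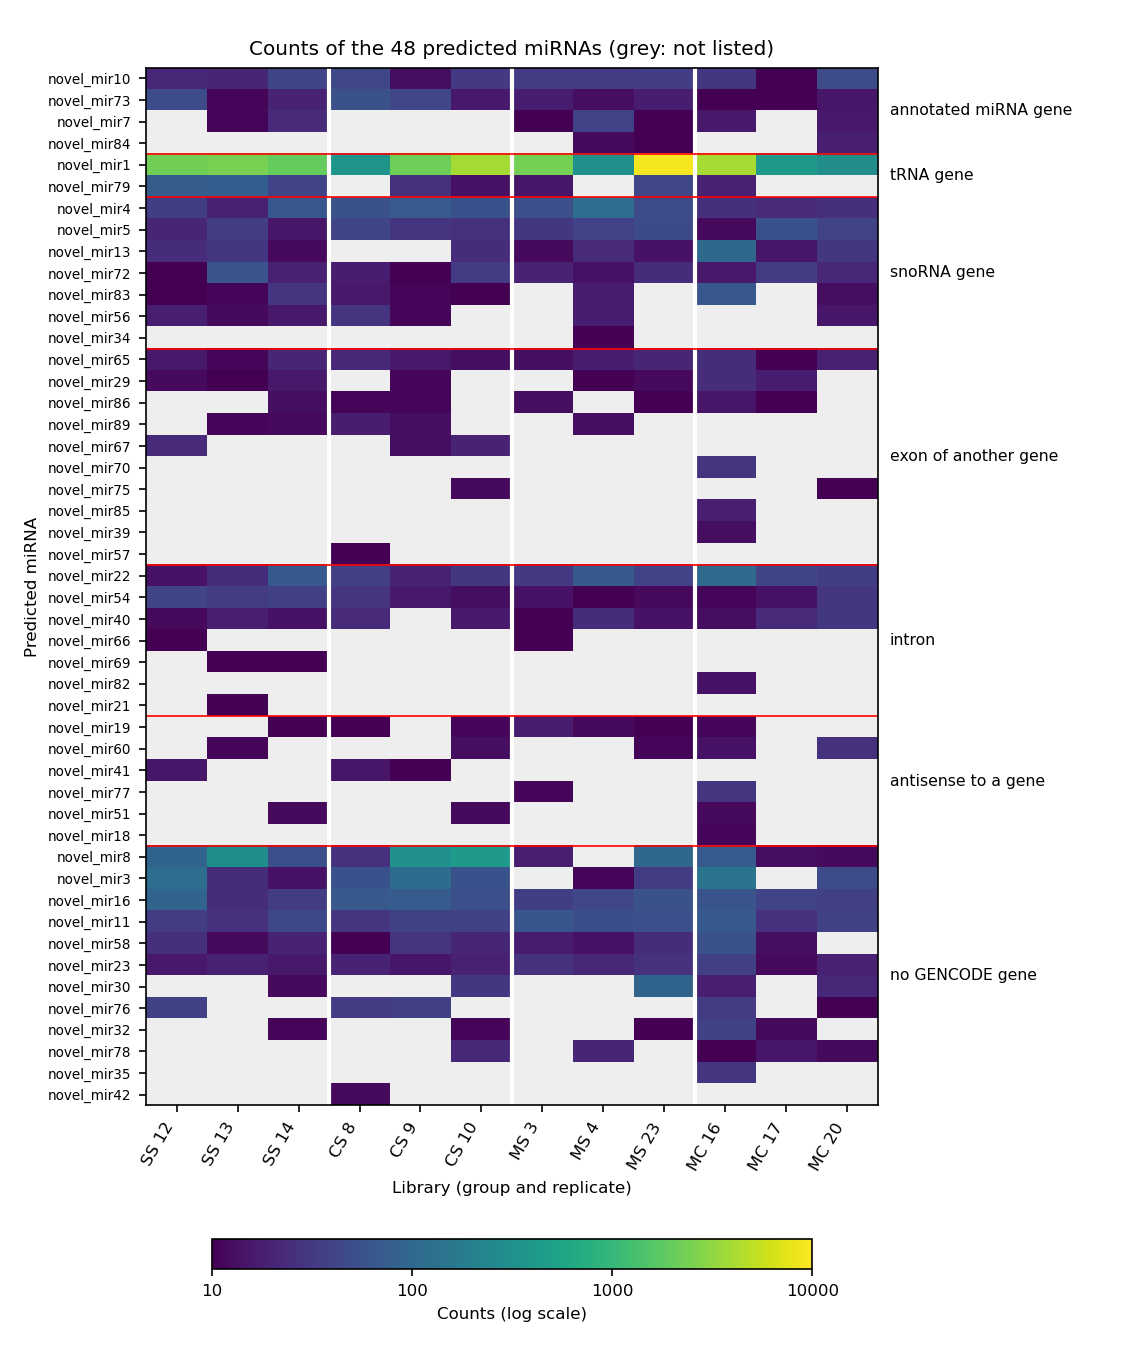
Counts (colour, log scale) of the 48 predicted miRNAs (rows, by the annotation of their position) in the 12 libraries (columns, by group and replicate). Grey means not listed, and no listed value was under 10 counts. novel_mir1 is the brightest row in every library, and 10 rows have an entry in only 1 library, 6 of them in MC 16.

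The number of members listed lay between 20 (MC replicate 17) and 36 (MC replicate 16), with means of 26.7 ± 2.08 for SS, 25.3 ± 1.53 for CS, 24.3 ± 2.08 for MS and 27.0 ± 8.19 for MC (SD, n = 3 libraries each). No difference among the groups was found (exact permutation test of F over all 369600 groupings, upper tail, p = 0.915). MC replicate 16 had the smallest library total and also the largest share of counts on exons, 16.1% against 7.40% to 10.9% in the other 11. Its miR-9-5p was the lowest, 15389 CPM against 38760 to 61617 CPM in the other 11. Its snoRNA level was the highest, 642.6 CPM against 269.6 to 556.6 CPM. The part of any of these in its longer list was not tested.

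Predicted miRNAs took between 0.0139% (MC replicate 20) and 0.151% (MS replicate 23) of all miRNA counts. The share was 0.0476 ± 0.0112% for SS, 0.0579 ± 0.0402% for CS, 0.0689 ± 0.0719% for MS and 0.050 ± 0.0602% for MC (SD, n = 3). No difference among the groups was detected (exact permutation test of F, p = 0.975), and the 4 pairwise exact tests gave p between 0.600 and 0.900, where 3 against 3 libraries cannot go below 0.1. Without novel_mir1 the share fell to between 0.00656% and 0.0278%, and again no difference was detected (exact permutation p = 0.594).

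novel_mir1 (chr13:23500525-23500594, minus strand) alone held 76.4% of the counts. It covered 70 of the 73 bases of n-TRacg4, a gene for the arginine tRNA with the anticodon ACG. RefSeq has 6 genes of this name, and a read that matches several copies cannot be placed on one of them. The CPM of novel_mir1 was 272.9, 239.3 and 175.1 in SS replicates 12, 13 and 14, and 42.4, 247.4 and 483.0 in CS replicates 8, 9 and 10. It was 216.8, 32.0 and 886.5 in MS replicates 3, 4 and 23, and 514.4, 51.4 and 27.8 in MC replicates 16, 17 and 20. The groups overlapped in every comparison. The low libraries, at 27.8 to 51.4 CPM, were found in CS, MS and MC, and the other 8 lay at 175.1 or above. The log2 fold changes were 0.02 in CS vs SS, 0.56 in MS vs SS, 0.08 in MC vs CS and -0.45 in MC vs MS, each with a standard error of 1.34 (edgeR, adjusted p = 0.929 to 0.998), and in each of the 4 comparisons leaving out 1 library reversed the sign.

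The 4 libraries low in novel_mir1 were also low in miR-124-3p, the most abundant of the neuronal markers, with 30002 to 38721 CPM. Of the other 8 libraries, 6 had 148929 to 176336 CPM of miR-124-3p, while SS replicate 14 (70274) and MC replicate 16 (46349) lay lower and kept a high novel_mir1. The other brain markers named at the start did not share this pattern. In the 4 low libraries miR-9-5p had 42667 to 59924 CPM and miR-128-3p 17997 to 23767 CPM, within the range of the other 8. The tRNA family row of the same tables, which holds the reads assigned to tRNAs by Rfam, did not have the pattern of novel_mir1 either. It had 1242, 791.2, 531.4 and 1496 CPM in CS 8, MS 4, MC 17 and MC 20. It was thus highest in MC replicate 20, where novel_mir1 was lowest, and it was lowest in SS replicate 14 (417.5 CPM). The part of any of these in the level of novel_mir1 was not tested.

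**Figure D2:**
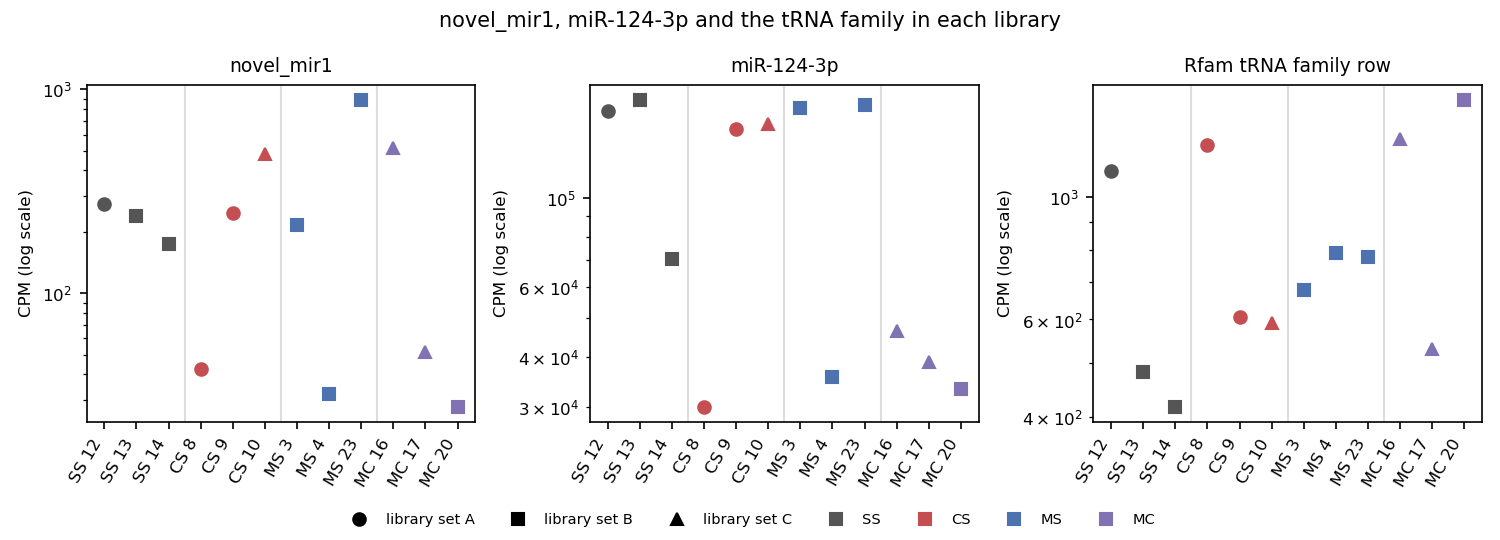
CPM (log scale) of novel_mir1, of miR-124-3p and of the Rfam tRNA family row in each library (x axis, group and replicate); colour gives the group and shape the library set, found from miRNA precursor families. CS 8, MS 4, MC 17 and MC 20 are low in both novel_mir1 and miR-124-3p, and spread from 531.4 to 1496 CPM in the tRNA family row.

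The other tRNA member, novel_mir79 (chr11:69063548-69063586, minus strand), shared 19 bases with n-TWcca6, a tryptophan tRNA gene of which RefSeq has 8. It had 9.24, 7.77 and 3.61 CPM in SS and was listed in 2 of 3 libraries of CS (3.10 and 1.71) and of MS (1.37 and 4.14) and in 1 of MC (2.45). SS and MS overlapped, whereas the CS and MC libraries all lay below the lowest SS library, including those that did not list it. Of the 751 miRNAs listed in all 6 libraries, 13.6% did not overlap in CS vs SS, a count that leaves this member out. MC vs SS was not tested, and the share of all miRNAs without overlap was not counted for it. In edgeR, with 0 entered where not listed, the log2 fold change in CS vs SS was -2.29 (SE 1.57, adjusted p = 0.994). In MS vs SS it was -2.08 (SE 1.54, adjusted p = 0.722). With 9 counts where not listed these became -2.05 and -1.88.

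Of the abundant members outside GENCODE genes, novel_mir8 (chr2:73012856-73012919, minus strand, inside the RefSeq non-coding RNA Gm39850) came next to novel_mir1, with up to 50.1 CPM in CS replicate 10. It was under 4 CPM in CS replicate 8 (3.19), MS replicate 3 (1.64), MC replicate 17 (1.63) and MC replicate 20 (1.10), and not listed in MS replicate 4. In SS it had 11.3, 30.8 and 4.87 CPM, and all 4 groups overlapped. novel_mir3 (chr13:107121703-107121787, plus strand) ranged from not listed in MS replicate 3 and MC replicate 17 to 18.4 CPM in MC replicate 16. novel_mir16 (chr17:57117642-57117705, minus strand) was steadier, with 2.49 to 11.1 CPM, and so was novel_mir11 (chr15:49330713-49330760, plus strand), with 2.69 to 8.88 CPM.

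Among the 12 members listed in all libraries, the highest library exceeded the lowest by 2.94-fold to 31.9-fold (median 5.19-fold). The within-group coefficient of variation of CPM was used to set this beside known miRNAs of the same abundance. Leaving out novel_mir1, the median was 35.5% over the 11 members (26.1% to 55.5%) and 26.7% over the 53 known miRNAs that had at least 10 counts in every library and lay in the same range of 1.84 to 5.75 CPM. Of the 11 members, 10 lay above the median of the known miRNAs. novel_mir1 itself had 91.2%, against 46.1% for miR-124-3p.

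**Figure D3:**
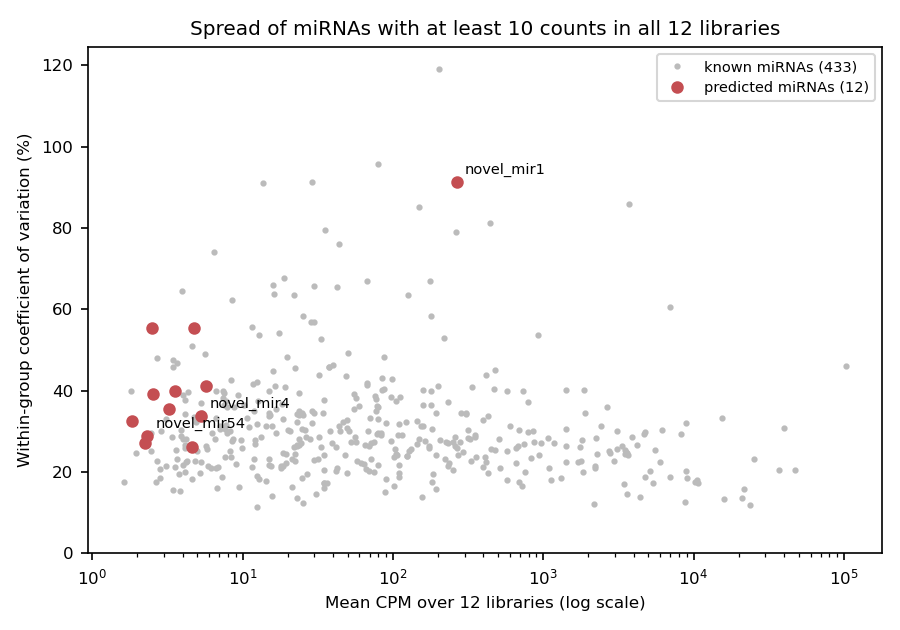
Within-group coefficient of variation of CPM (y axis, percent, mean of the 4 groups) against mean CPM (x axis, log scale) for the 12 predicted miRNAs (red) and the 433 known miRNAs (grey) with at least 10 counts in all 12 libraries. The members other than novel_mir1 lie between 26.1% and 55.5%, and novel_mir1 at 91.2% is among the most variable miRNAs of its level.

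For the comparison of groups, 34 of the 48 members passed the filter of at least 5 counts in at least 3 libraries and were tested with the known miRNAs, 780 miRNAs in all. To be called, a miRNA needed an adjusted p (Benjamini-Hochberg) no higher than 0.05 and, between pairs of groups, a log2 fold change of size 1 or more. In edgeR, 0 members and 0% of all 780 miRNAs were called in CS vs SS, MS vs SS, MC vs CS, MC vs MS, the interaction of cocaine and methionine, or among the 4 groups. At an unadjusted p under 0.05 there were 2 members and 22 of all miRNAs in CS vs SS, 1 and 75 in MS vs SS, 4 and 58 in MC vs CS, and 3 and 65 in MC vs MS. The same count was 2 and 34 for the interaction and 2 and 59 among the 4 groups. DESeq2 called 1 member, novel_mir54, and 9 miRNAs in all in MS vs SS, the same member and 12 miRNAs in all among the 4 groups, and none in the other comparisons.

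The median log2 fold change of the tested members was 0.13 in CS vs SS, -0.37 in MS vs SS, 0.30 in MC vs CS and 0.52 in MC vs MS. Over all 780 miRNAs the medians were 0.03, -0.03, 0.08 and 0.05. Without MC replicate 16, the library with the longest list, the medians of the members became -0.49 in MC vs CS and -0.18 in MC vs MS, so their sign there rests on that library. The median in CS vs SS turned as well, to -0.12 without SS replicate 13, -0.12 without SS replicate 14, -0.18 without CS replicate 10, and -0.04 over all 48 members with 9 counts where not listed. In MS vs SS the median stayed below 0 but ranged from -1.12 without MS replicate 23 to -0.10 over all 48 members with no filter. It was -0.13 without SS replicate 12. When library set was added as a covariate, the members' medians became -0.51 in CS vs SS, -0.12 in MS vs SS and -0.27 in MC vs MS. Without TMM scaling factors the median of all miRNAs moved to 0.31 in CS vs SS and 0.21 in MS vs SS, and the members' medians there were 0.31 and -0.18.

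novel_mir54, the hairpin at the intron end in Aff3, had the smallest p of all members. It had 42, 33 and 37 counts in SS replicates 12, 13 and 14, 28, 16 and 13 in CS replicates 8, 9 and 10, 14, 10 and 12 in MS replicates 3, 4 and 23, and 11, 14 and 30 in MC replicates 16, 17 and 20. In CPM these were 5.10, 3.29 and 3.34 for SS, 3.30, 1.84 and 1.59 for CS, 1.28, 0.999 and 1.15 for MS and 1.42, 1.76 and 2.75 for MC. The 3 MS libraries were the lowest of all 12 and lay close to the level of 10 counts below which no value is listed. SS and MS did not overlap, nor did MS and MC, whereas CS replicate 8 reached the lower end of SS.

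In MS vs SS the log2 fold change of novel_mir54 was -1.99 (SE 0.353), with an unadjusted p of 1.34e-04 and an adjusted p of 0.105 in edgeR, so it was not called. DESeq2 called it (adjusted p = 0.00273), as did edgeR without MC replicate 16 (0.0283), and over all alternatives the adjusted p lay between 0.00273 and 0.592. Its log2 fold change stayed between -2.16 and -1.76 when any 1 library was left out. Clustering by miRNA precursor families divided the 12 libraries into 3 sets, a number that was set and not tested. SS 12, CS 8 and CS 9 were in set A, CS 10, MC 16 and MC 17 in set C and the other 6 in set B. Set and group overlapped in part, since all MS libraries lay in set B and set A held no MC library. Fits with library set as a covariate thus cannot fully tell them apart. In set B alone, SS replicates 13 and 14 (3.29 and 3.34 CPM) lay above the 3 MS libraries. That order follows from the lack of overlap of SS and MS above and is no separate support. With library set as a covariate the log2 fold change was -1.83 (adjusted p = 0.552).

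In the other comparisons novel_mir54 had a log2 fold change of -1.09 (SE 0.341, adjusted p = 0.994) in CS vs SS, -0.04 (SE 0.347, adjusted p = 0.973) in MC vs CS and 0.86 (SE 0.356, adjusted p = 0.561) in MC vs MS. The interaction was 1.95 (SE 0.493, unadjusted p = 0.00209, adjusted p = 0.804). The F-test among the 4 groups gave an adjusted p of 0.347 in edgeR and 0.0119 in DESeq2. Thus 1 tool and not the other placed this member past the threshold, on 10 to 42 counts per library. The precision is limited by these low counts, and replicates from pooled animals measure only the spread between such pools.

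novel_mir4, the hairpin on Snord104, differed in another way. Its CPM was 4.37, 1.89 and 5.87 for SS, 6.49, 8.38 and 6.97 for CS, 4.92, 11.7 and 4.81 for MS and 3.35, 2.88 and 2.38 for MC. CS lay above SS, and MC lay below both CS and MS, in every library. None of these differences passed the test. The log2 fold change was 0.64 (SE 0.465, adjusted p = 0.994) in CS vs SS, -1.15 (SE 0.476, adjusted p = 0.577) in MC vs CS and -1.08 (SE 0.474, adjusted p = 0.561) in MC vs MS. The order within library sets follows from the lack of overlap above and is no separate support. In set A it rested on SS 12 (4.37 CPM) against CS 8 and CS 9. In set C it rested on CS 10 (6.97) against MC 16 and MC 17.

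The same tables have a separate Rfam row for SNORD104, with 1504 counts against the 601 of novel_mir4, and its order was not that of the hairpin. Its CPM was 10.5 ± 5.39 for SS, 11.4 ± 5.80 for CS, 16.4 ± 6.47 for MS and 13.2 ± 9.21 for MC (SD, n = 3), with the groups overlapping. MC replicate 20, the library with the second lowest novel_mir4, had 20.6 CPM of SNORD104. For other snoRNA members the split went the other way. novel_mir72 on Snora65 had 280 counts over the 12 libraries and the Rfam row SNORA65 only 3, and novel_mir5 on Snora7a had 396 against 202 of SNORA7. How reads were shared out between the predicted hairpins and the Rfam rows is not given in the sources used here, so the counts of such members need not be all reads of these RNAs.

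**Figure D4:**
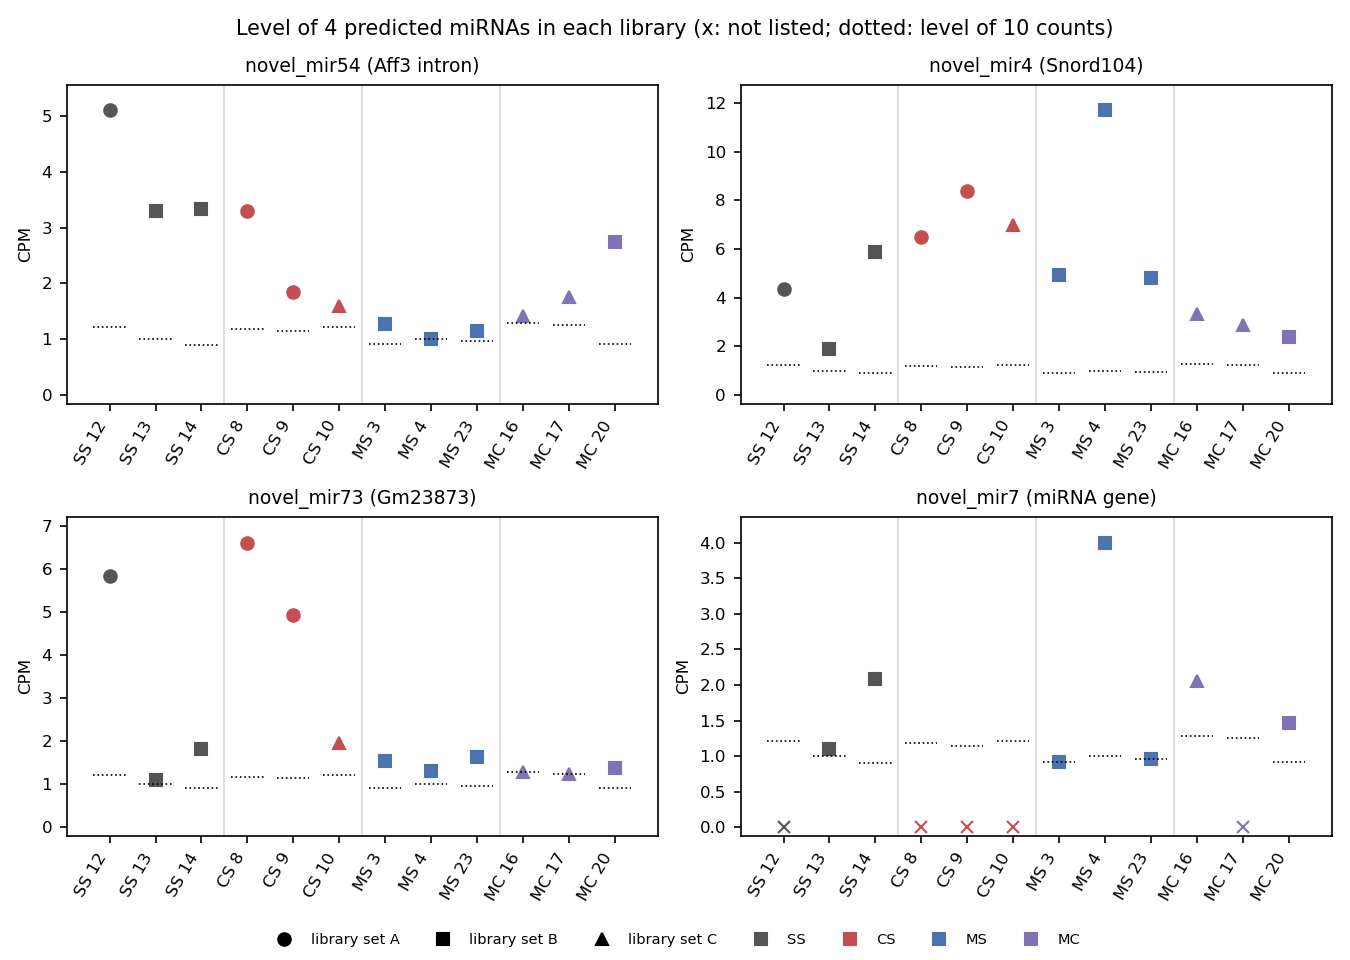
CPM (y axis) of novel_mir54, novel_mir4, novel_mir73 and novel_mir7 in each library (x axis, group and replicate); colour gives the group, shape the library set, a cross a library that does not list the member, and the dotted line the level of 10 counts. MS is lowest for novel_mir54 at 0.999 to 1.28 CPM, MC lies below CS and MS for novel_mir4, and novel_mir73 is above 4 CPM only in the 3 libraries of set A.

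novel_mir73, the hairpin in Gm23873, was higher in CS (6.61, 4.94 and 1.96 CPM) than in MC (1.29, 1.25 and 1.37 CPM) in every library, with a log2 fold change of -1.57 (SE 0.594, adjusted p = 0.577) in MC vs CS. It had 5.83, 1.10 and 1.81 CPM in SS and 1.55, 1.30 and 1.64 CPM in MS. The high values were those of SS 12, CS 8 and CS 9, the libraries of set A, at 4.94 to 6.61 CPM, against 1.10 to 1.96 CPM in the other 9. With library set as a covariate the log2 fold change in MC vs CS was -0.36 (adjusted p = 0.955). No MC library was in set A and no CS library in set B, so set and group cannot be fully told apart in this comparison. novel_mir16 was likewise higher in each library of set A (8.14 to 11.1 CPM) than in any other (up to 7.72 CPM). novel_mir41 was listed only in set A, at 1.15 to 1.82 CPM, but on 10 to 15 counts, where up to 9 counts are possible in each other library. novel_mir76 (chr17:50420140-50420213, minus strand) was listed in all of set A (4.01 to 4.62 CPM), but reached 4.25 CPM in MC replicate 16 as well, and was not listed in any MS library.

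novel_mir7, the first of the members at annotated miRNA genes, was not listed in any CS library, nor in SS replicate 12 or MC replicate 17. Elsewhere it had 1.10 and 2.08 CPM in SS, 0.912, 4.00 and 0.962 in MS, and 2.06 and 1.47 in MC. It had the smallest unadjusted p of the members in MC vs CS (0.0174, adjusted p = 0.577) and the second smallest in CS vs SS (0.0199, adjusted p = 0.994), both with CS entered as 0. With 9 counts where not listed its log2 fold changes were 0.75 and -0.67, and the smallest unadjusted p in MC vs CS was that of novel_mir73 (0.0200). No fold is given from the values entered as 0. Its level in CS is not known and is only taken to lie under 10 counts per library. Most of the libraries that list it lay near that level too.

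Further members came among the 3 smallest p of a comparison, with 0 entered where not listed, without a level in both groups. novel_mir78 (chr13:104500933-104501018, plus strand) was not listed in SS and was listed in 1 CS library (2.69 CPM), 1 MS library (2.10) and all 3 MC libraries (1.29, 1.88 and 1.10). novel_mir84, the miR-12200 hairpin, was not listed in SS or CS and was listed in 2 MS libraries (1.20 and 0.962 CPM) and 1 MC library (1.65). Both had adjusted p of 0.551 or more in all comparisons (edgeR), and no listed value of novel_mir84 was above 18 counts.

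Groups without overlap were counted over the members listed in all 6 libraries of a comparison. They were 1 of 16 in CS vs SS, against 13.6% of the 751 miRNAs listed in all 6 libraries, 3 of 15 in MS vs SS against 23.3% of 759, 2 of 13 in MC vs CS against 5.57% of 754, and 2 of 14 in MC vs MS against 8.80% of 773. Beside those described above these were novel_mir11 and novel_mir23 in MS vs SS. novel_mir11 had 4.01, 2.69 and 4.06 CPM in SS and 5.74, 5.29 and 5.20 in MS (log2 fold change 0.37, SE 0.531, adjusted p = 0.886), and novel_mir23 (chr10:83799923-83799995, plus strand) 1.94, 1.89 and 1.44 in SS and 2.46, 2.20 and 2.60 in MS (0.22, SE 0.576, adjusted p = 0.947).

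The remaining abundant members gave no separation of groups. novel_mir22, the hairpin at the end of the short Sez6 intron (chr11:77977953-77978011, plus strand), had 3.50 ± 2.47 CPM for SS, 3.48 ± 1.07 for CS, 4.55 ± 2.08 for MS and 7.49 ± 5.64 for MC (SD, n = 3), its highest value being 13.9 in MC replicate 16. novel_mir5 (chr6:115807978-115808043, minus strand) had 2.46 ± 1.07, 3.82 ± 0.982, 3.78 ± 0.869 and 4.15 ± 2.82 CPM in SS, CS, MS and MC. novel_mir10, the miR-12194 hairpin, had 2.85 ± 0.864, 3.53 ± 1.88, 3.29 ± 0.164 and 3.24 ± 1.74 CPM in the same order. In each of these the group means differed by less than the spread of MC.

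For comparison, 13 of 15 miRNAs known as mirtrons or as made without Drosha or Dicer were listed, and 12 were tested. An unadjusted p under 0.05 (edgeR) was reached by 1 of them in CS vs SS, 2 in MS vs SS, 1 in MC vs CS and 3 in MC vs MS. The smallest adjusted p among them was 0.315 in edgeR (MS vs SS), and DESeq2 called 0 of the 12 in these comparisons. Their median log2 fold changes were 0.07, -0.10, 0.69 and 0.90 in that order, beside 0.13, -0.37, 0.30 and 0.52 for the predicted miRNAs. Without MC replicate 16 the predicted miRNAs had medians of -0.49 in MC vs CS and -0.18 in MC vs MS. The medians of the comparison list were not computed without that library. Most of these miRNAs were more abundant than the members, as were miR-1981-5p with 260.3 to 1030 CPM and miR-877-5p with 19.6 to 91.5 CPM, but miR-1839-3p had 2.67 to 14.8 CPM and miR-5132-5p at most 0.398 CPM. No member other than novel_mir1 and novel_mir8 passed 20 CPM in any library.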

How the data were processed

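Small RNA of 18 to 30 nt was sequenced as single reads of 50 bases on the BGISEQ-500 platform. According to the methods of the study, the authors discarded low-quality reads and reads under 16 nt and mapped the rest with AASRA; the submitters' processing notes name mm10 and Bowtie. The tool that predicted the miRNAs and its settings are not given in the sources used here. Each deposited table holds raw counts per small RNA and the authors' TPM, which is the count scaled to a library total of 1000000; only the counts were used here. The library total gives the depth, and intervals from counts would cover counting error only.

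Members are the rows of type miRNA named novel_mir, as listed from 10 counts. Known miRNAs carry the type mature, so both types were tested together. Counts were scaled to CPM by the library total, and tested in edgeR 4.0.16 (quasi-likelihood F-test, TMM factors, 1 coefficient per group, all 12 libraries, at least 5 counts in 3 libraries, Benjamini-Hochberg over the 780 miRNAs tested); a member not listed entered as 0. The standard error is the log2 fold change divided by the root of F. Values per library were compared by exact permutation tests. Alternatives were DESeq2 1.42.0, other scaling factors and filters, 9 counts where not listed, the 6 libraries of a comparison alone, library set as a covariate, and leaving out each library. Library sets came from clustering 204 precursor families into 3 sets, a number that was set and not tested, and are not given by the labels. RNAfold 2.7.2 gave folding energies.

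Named with values are the 10 members with the highest mean CPM, the 3 with the smallest unadjusted p in each pairwise comparison, and those whose groups did not overlap with all 6 libraries listing them. The members, lists and tests were chosen with earlier results of these data known. GENCODE M21 and RefSeq GRCm38.p6 gave genes and sequences; the RefSeq gene table gives no strand for tRNA genes, and sequences of the other members were not used here. The positions and host genes of novel_mir7 and novel_mir86 are not reported here.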

Additional observations from a re-analysis of the deposited data

Results flagged for a closer look

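For novel_mir4, the hairpin on Snord104, the cocaine groups differed from their controls in opposite directions without and with methionine. It was flagged because neither pair of groups overlapped, so that lack of overlap is no separate support. Among all miRNAs listed in all 6 libraries, 13.6% did not overlap in CS vs SS and 8.80% in MC vs MS. The share of all miRNAs with both, in opposite directions, was not counted. All 3 CS libraries (6.49 to 8.38 CPM) lay above all 3 SS libraries (1.89 to 5.87 CPM), and all 3 MC libraries (2.38 to 3.35 CPM) lay below all 3 MS libraries (4.81 to 11.7 CPM). The interaction, (MC - MS) - (CS - SS), was -1.71 on the log2 scale (SE 0.663, unadjusted p = 0.0249), and its adjusted p was 0.804 in edgeR and 0.796 in DESeq2, so the difference did not pass the test. Over all alternatives the adjusted p lay between 0.441 and 1.00, and over the fits that left out 1 library the value lay between -2.22 and -1.28. It was -1.86 with library set as a covariate.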

How the results depend on the processing

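Depth and the listing minimum of 10 counts limit the precision, as 48.1% of the listed values lay under 20 counts. The number of members called stayed at 0 under every alternative in CS vs SS, MC vs CS, MC vs MS and the interaction. In MS vs SS it was 1 (novel_mir54) with DESeq2, and 0 to 1 when 1 library was left out, 1 without MC replicate 16; among the 4 groups it was 1 with DESeq2. The log2 fold change of novel_mir54 in MS vs SS was -2.02 with DESeq2. The sign of novel_mir1 reversed as follows. In CS vs SS it was -1.76 with library set as a covariate, and -0.96 to 0.55 when 1 library was left out (-0.22 without SS 14, -0.96 without CS 10, -0.01 without MS 23). In MS vs SS it was -1.12 to 1.11 when 1 library was left out (-1.12 without MS 23). In MC vs CS it was -0.41 with TMM factors from all small RNAs, -0.38 without TMM factors, -0.95 with library set as a covariate, and -2.95 to 1.04 when 1 library was left out (-0.44 without CS 8, -2.95 without MC 16). In MC vs MS it was -3.48 to 1.19 when 1 library was left out (1.19 without MS 23, 0.05 without MC 17, 0.09 without MC 20). The causes were not tested. The share of counts and the number listed gave no difference under any alternative. No paired analysis was possible because the groups share no replicate number.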
